A study of Rattus norvegicus with 12 samples.

Results

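The potassium channel genes outside the GIRK family were followed in the periaqueductal grey of male rats whose sires had received either saline or morphine. Members were the genes whose symbol begins with Kcn followed by letters and a digit, at a mean of at least 0.5 TPM (a transcript level corrected for its length and scaled to the library total) over the 12 libraries. Kcnj3, Kcnj5, Kcnj6, Kcnj9, Kcnj8, Kcnj10 and Kcne2 were left out by rule. Of 91 symbols with such a name, 7 were left out, 12 lay under the limit and 72 were members, among 24540 genes at or above the limit and 41596 genes in all. The limit fell between Kcnn4 at 0.530 and Kcnk5 at 0.580 TPM inside it and Kcnj15 at 0.310 and Kcne3 at 0.260 TPM outside it.

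The libraries came from polyA RNA of the periaqueductal grey, a midbrain region that takes part in pain control and opioid action, of Sprague Dawley rats. In the 6 saline-sired animals the father had been given saline, and in the 6 morphine-sired animals the father had been given morphine. The labels name no treatment of the offspring themselves, no age, and no litter or sire, so the tests treat the animals as independent and p-values are too small if animals share a father. Each library is 1 dissected tissue sample, and in such bulk tissue fewer cells of a type and less RNA per cell cannot be told apart.

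Potassium channels let potassium ions cross the membrane and so set the resting potential and the shape and spacing of action potentials. Voltage-gated Kv channels, calcium-activated BK and SK channels, sodium-activated Slack channels, inward rectifiers and tandem-pore K2P leak channels each have a pore of their own, while Kv beta, KChIP and KCNE proteins are auxiliary subunits. In the periaqueductal grey, opioid receptors are known to act in part by opening potassium conductances, of which the GIRK channels left out here and Kv1 channels at nerve terminals are the best described.

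The libraries held between 4.39 and 6.03 gigabases of aligned sequence. The label of the tissue was matched by markers of neurons (8 of 8 detected in every library, 4510.1 to 8412 TPM summed), astrocytes (6 of 6, 932 to 1597 TPM) and oligodendrocytes (8 genes, 9967 to 20328 TPM). Morphine-sired 2 stood apart with 1806 TPM over 7 choroid plexus markers, mostly Ttr, and saline-sired 2 followed with 449 TPM, against 13.2 to 78.2 TPM in the other 10 libraries. Saline-sired 1 and 6 and morphine-sired 1 had 4.22, 3.19 and 5.77 TPM over 6 cholinergic and motor neuron markers, against 54.2 to 138 TPM in the other 9. Saline-sired 2 had 166, 37.6 and 30.98 TPM of the cerebellar markers Pcp2, Gabra6 and Neurod1, which reached at most 1.89, 0.316 and 3.13 TPM elsewhere. Of the other genes of that list, Calb1 was also highest there, at 101 TPM in a range of 41.0 to 101 TPM. Cbln1 was not, at 70.0 TPM in a range of 30.6 to 155 TPM. Saline-sired 2 also had the highest sum of 5 serotonergic markers, 1016 TPM in a range of 9.83 to 1016 TPM.

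No member differed between the groups at an adjusted p under 0.05 (limma, Benjamini-Hochberg over all 24540 genes; smallest adjusted p of a member 0.9998), and 0% of all genes did (smallest adjusted p 0.357). At an unadjusted p under 0.05 stood 2 of 72 members, Kcnma1 and Kcna2, or 2.78%, beside 3.22% of all genes, a share near the background, and Kcnma1 reached the level limit through 1 group only; the 1 that was higher stands beside 1.5% of all genes and the 1 that was lower beside 1.72%. With limma-voom on estimated reads no member passed the adjusted threshold either, and 3 of 72 stood at an unadjusted p under 0.05 beside 3.04% of all genes. The mean log2 value was higher in the morphine-sired group for 31 members and lower for 41, where 49.2% of all genes were higher. The median log2 difference, morphine-sired minus saline-sired, was -0.017 over the members and -0.0022 over all genes. In no member did the 6 values of a group lie entirely apart from the other 6, as they did in 0.0896% of all genes. Differences under 0.25 in size were found in 62 members, and the 95% interval lay within 1 log2 unit on either side of 0 for 66 members and within 0.5 for 42. The median length of the interval to either side was 0.36. The intervals are not adjusted for the 24540 genes tested, so for a typical member a change of that size, and larger ones, could go undetected.

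**Figure D1:**
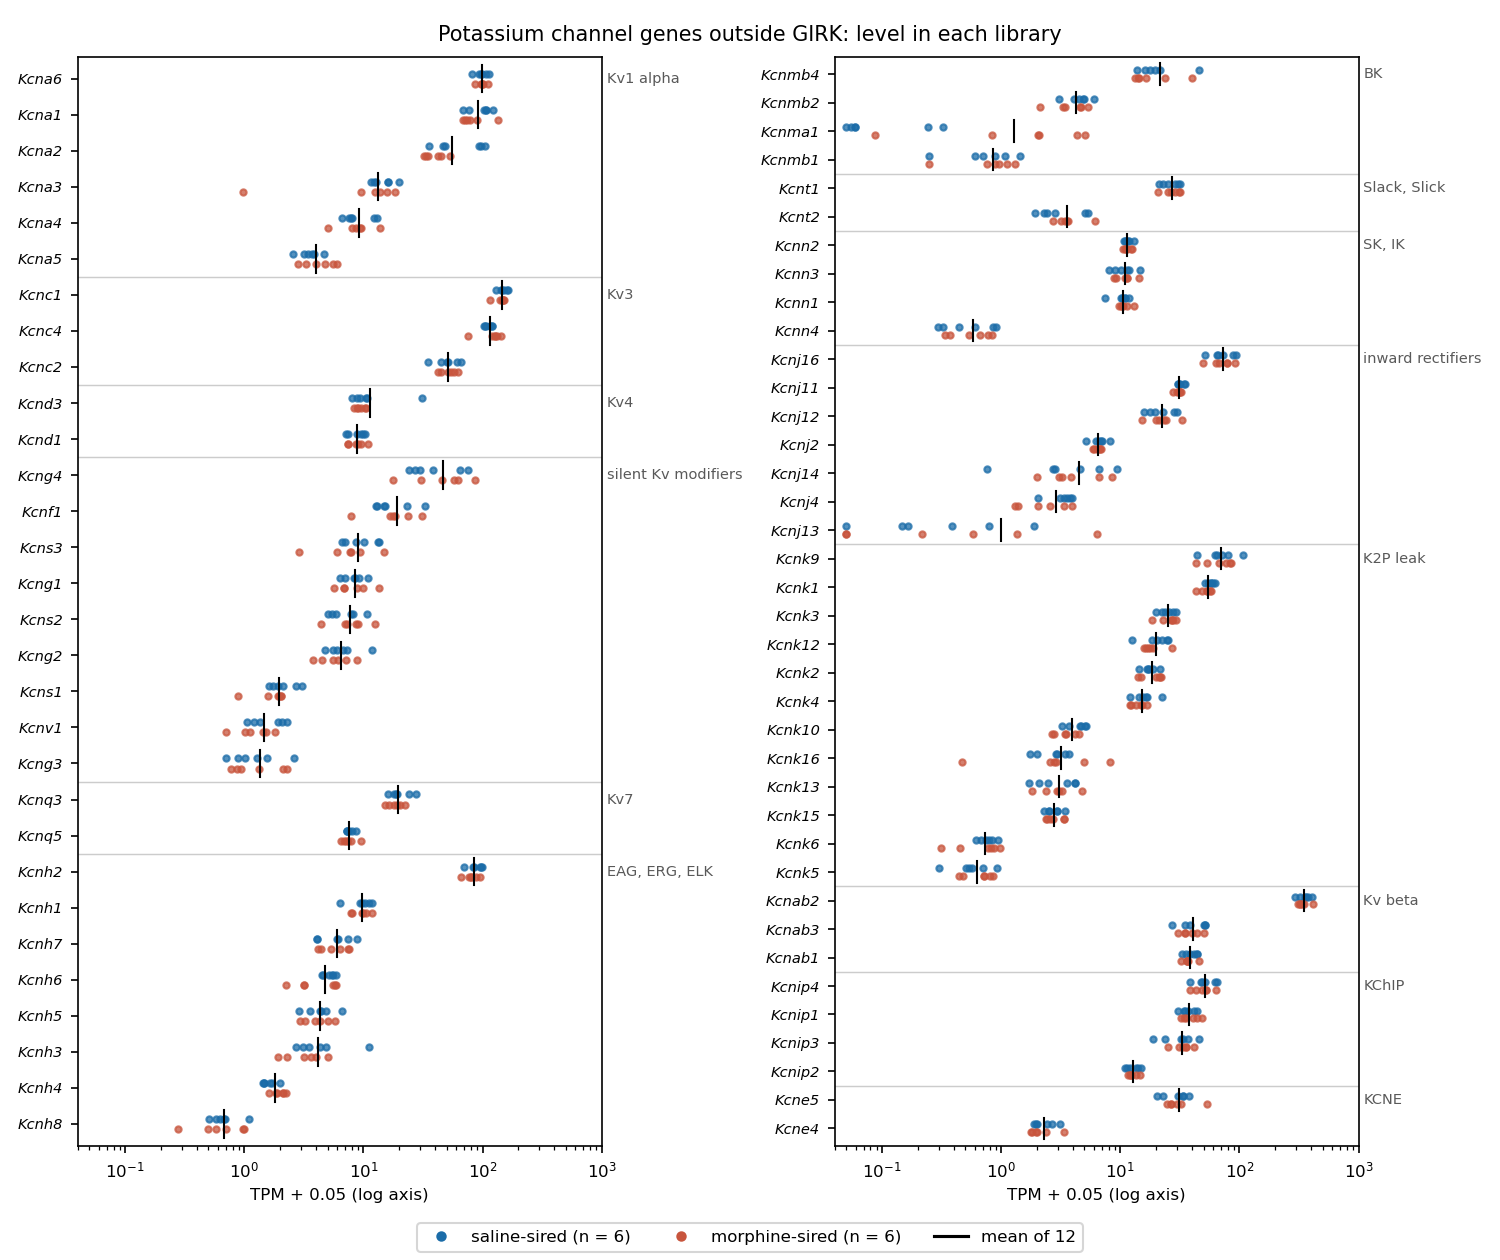
Level of 68 of the 72 members in each of the 12 libraries, as TPM plus 0.05 on a log axis, ordered by subfamily and then by mean. Blue points are the 6 saline-sired and red points the 6 morphine-sired libraries, and the black bar is the mean of 12. Levels ran from 0.530 TPM for Kcnn4 to 347 TPM for Kcnab2, and the colours overlapped for each of them.

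Promoters are shown for 5 members picked by their values in these data, as a description only. Kcna2 and Kcnma1 had the smallest unadjusted p-values, with an adjusted p of 0.9998 each in limma. Kcnmb4 and Kcnf1 were both highest in the same libraries, and Kcnj13 was the most variable member. Each is the 250 bases before the RefSeq gene start in the build GRCr8, 5′ to 3′ on the gene's strand, with every match to the GC box GGGCGG or the TATA box TATAAA on either strand in capitals. The RefSeq promoter table had an entry for 48 of the 72 members, 66.7%, so no comparison of promoter features over the members was made.
Kcna2: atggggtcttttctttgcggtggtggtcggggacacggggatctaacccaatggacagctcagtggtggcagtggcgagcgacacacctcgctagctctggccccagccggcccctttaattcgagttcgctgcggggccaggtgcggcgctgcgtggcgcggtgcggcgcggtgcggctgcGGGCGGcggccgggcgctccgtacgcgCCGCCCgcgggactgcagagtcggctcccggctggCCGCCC
Kcnma1: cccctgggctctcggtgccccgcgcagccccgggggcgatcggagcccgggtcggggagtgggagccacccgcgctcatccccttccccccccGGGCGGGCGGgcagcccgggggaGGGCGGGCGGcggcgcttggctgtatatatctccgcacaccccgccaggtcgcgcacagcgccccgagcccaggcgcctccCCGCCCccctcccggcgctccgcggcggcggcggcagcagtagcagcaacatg
Kcnmb4: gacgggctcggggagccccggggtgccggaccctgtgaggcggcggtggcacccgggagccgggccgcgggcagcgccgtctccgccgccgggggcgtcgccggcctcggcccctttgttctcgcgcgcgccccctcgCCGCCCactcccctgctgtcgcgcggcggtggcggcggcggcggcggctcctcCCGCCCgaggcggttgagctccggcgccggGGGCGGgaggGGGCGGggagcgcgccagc
Kcnf1: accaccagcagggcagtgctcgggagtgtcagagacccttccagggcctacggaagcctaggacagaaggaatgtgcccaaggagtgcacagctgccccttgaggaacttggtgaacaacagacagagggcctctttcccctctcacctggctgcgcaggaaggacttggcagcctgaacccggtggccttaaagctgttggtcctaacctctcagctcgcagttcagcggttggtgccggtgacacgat
Kcnj13: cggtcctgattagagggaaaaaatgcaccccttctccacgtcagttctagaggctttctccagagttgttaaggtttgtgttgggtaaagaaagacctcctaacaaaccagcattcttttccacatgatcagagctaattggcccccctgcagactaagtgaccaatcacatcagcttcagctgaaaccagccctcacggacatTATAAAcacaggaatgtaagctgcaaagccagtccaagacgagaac
They lie at chr2:197393280-197393529 on the plus strand (Kcna2), chr15:351675-351924 on the plus strand (Kcnma1), chr7:54005102-54005351 on the minus strand (Kcnmb4), chr6:45693707-45693956 on the minus strand (Kcnf1) and chr9:95518987-95519236 on the minus strand (Kcnj13). Overlapping matches counted, the GC box occurred 3 times for Kcna2, 5 times for Kcnma1 and 4 times for Kcnmb4 and was not found for Kcnf1 or Kcnj13, and 32.4% of all 27457 promoters of this length held it. A TATA box was found for Kcnj13 alone of these 5, where 13.1% of all promoters held one. A search for the cAMP response element TGACGTCA found none in these 5, and 1.70% of all promoters held it. The Kcnmb4 window was the richest in CpG with 44, against 33 for Kcna2, 33 for Kcnma1, 8 for Kcnf1, 4 for Kcnj13 and a median of 6 over all promoters. The Kcnmb4 and Kcnf1 windows differed in CpG content and GC boxes.

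The Kv1 alpha subunits, which form low-threshold channels of axons and terminals, summed to 218 to 351 TPM per library over 6 members. Kcna6 was the highest, at 81.2 to 113 TPM (median 98.1) in offspring of saline-treated sires and 85.99 to 110.2 TPM (median 98.4) in those of morphine-treated sires, and was among the 4 most even members with a coefficient of variation of 9.21% over the 12 libraries. Its log2 difference was 0.0037 (-0.17 to 0.17), the range in parentheses being the 95% interval here and for every member below. Kcna1, the subunit mutated in episodic ataxia, lay at 68.1 to 123 TPM (median 104) with saline-sired and 68.1 to 135 TPM (median 76.2) with morphine-sired rats. It was highest in morphine-sired 2 and above 100 TPM in saline-sired 3, 4, 5 and 6, the groups overlapped, and the difference was -0.19 (-0.57 to 0.20). It was -0.38 ± 0.14 (SE; adjusted p = 0.47 in limma) without the 2 choroid plexus-rich libraries and -0.33 ± 0.14 without morphine-sired 2 alone. The summed neuron markers, which include the neurofilament genes, were also highest in morphine-sired 2 (8412 TPM) and next in saline-sired 3, 4 and 5 (7141 to 7422 TPM). Saline-sired 6 had 5564 TPM, below saline-sired 2 (5597 TPM) and morphine-sired 4 (6094 TPM), where Kcna1 was 77.6 and 89.3 TPM. Nefl, Nefm and Stmn2 were highest in morphine-sired 2 (2422, 2123 and 492 TPM). Rbfox3 was lowest there (62.7 TPM), and Snap25, Syt1, Map2 and Nefh were highest in other libraries. The summed oligodendrocyte markers were highest in morphine-sired 2 (20328 TPM) and next in saline-sired 3, 4, 5 and 6 (15089 to 16555 TPM). These are the libraries where Kcna1 was above 100 TPM. Of that list, Aspa was highest in saline-sired 4 (52.5 TPM) and Ermn in saline-sired 1 (204 TPM). The part of neuron or oligodendrocyte markers in the level of Kcna1 was not tested. The lower members were Kcna3, Kcna4 and Kcna5, at means of 13.2, 9.08 and 3.94 TPM, and 2 of the 6 genes were higher and 4 lower on average in the morphine-sired group.

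Kcna2, the partner of Kcna1 in axonal channels, was 1 of the pair of members at an unadjusted p under 0.05. Its level was 35.4, 48.04, 96.5, 46.4, 94.1 and 105 TPM in saline-sired 1 to 6 and 33.6, 34.8, 32.2, 45.1, 53.2 and 42.5 TPM in morphine-sired 1 to 6. Saline-sired 3, 5 and 6 were high and the other 3 saline-sired libraries lay among the morphine-sired ones. The difference was -0.70 ± 0.26 (SE; adjusted p = 0.9998 in limma), and -1.16 ± 0.28 in limma-voom on estimated reads. The gene (Rnor_6.0, chromosome 2, 209741272 to 209852471, plus strand) has 12 transcripts, 8 of them assembled in the series. Those of about 11 kb cover nearly the same span as each other and start at 209839299 or later. In saline-sired 3 and 5 the level was carried by an assembled transcript of 11289 bases (82.4 and 77.6 TPM), and in saline-sired 6 by an annotated transcript of 11348 bases (70.5 TPM). Over annotated transcripts alone the difference was -0.17 ± 0.78, so the value depends on which transcripts are counted. An assembled transcript of 4333 bases was the only one to start before 209838869, so the start of the gene rests on it alone. It was higher on average in the morphine-sired group, at 0 to 13.95 TPM (median 7.33) across saline-sired libraries against 10.4 to 28.02 TPM (median 16.9) across morphine-sired ones (log2 difference 1.72 ± 0.62).

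Kv3 channels give the fast repolarization of rapidly firing neurons. Kcnc1 and Kcnc4 were among the 5 members with the highest mean level. Kcnc1 was even, at 130.2 to 165 TPM (median 148) across saline-sired libraries against 115 to 152 TPM (median 147) across morphine-sired ones, with a difference of -0.076 (-0.24 to 0.087). Kcnc4, which inactivates quickly, lay at 103 to 121 TPM (median 111) in offspring of saline-treated sires and 75.9 to 142 TPM (median 127) in those of morphine-treated sires. Morphine-sired 2 was its lowest library at 75.9 TPM, and the other 5 morphine-sired libraries reached from 120.4 to 142 TPM. Without the 2 choroid plexus-rich libraries the difference of Kcnc4 was 0.23 ± 0.059 (SE; adjusted p = 0.403 in limma), against 0.084 (-0.19 to 0.36) over all libraries. In that fit 8 of 72 members, 11.1%, stood at an unadjusted p under 0.05, beside 8.86% of all genes, and none at an adjusted p under 0.05. Kcnc2, another Kv3 gene, had a mean of 51.6 TPM.

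The Kv4 genes, which carry the A-type current of dendrites, had Kcnd3 and Kcnd1 as members. Another Kv4 gene, Kcnd2, was not among the 91 symbols with such a name, so its level is not known here. Kcnd3 was 30.8 TPM in saline-sired 1 and 8.03 to 10.6 TPM in the other 11 libraries, and its difference was -0.28 (-0.83 to 0.27), or -0.0074 ± 0.09 (SE) without saline-sired 1. Kcnd1 lay at 7.06 to 10.2 TPM (median 9.12) with saline-sired and 7.34 to 10.8 TPM (median 8.77) with morphine-sired rats. The 9 silent modifier subunits, which make no channel alone and alter other Kv channels, ranged from 1.31 TPM for Kcng3 to 46.6 TPM for Kcng4. Kcng4 spread widely in both groups, at 24.1 to 75.7 TPM (median 34.3) across saline-sired libraries against 17.6 to 86.8 TPM (median 51.5) across morphine-sired ones. Kcnf1 lay at 12.8 to 32.7 TPM (median 15.03) in offspring of saline-treated sires and 7.82 to 30.9 TPM (median 18.02) in those of morphine-treated sires. Kcns3 was found at 6.52 to 13.4 TPM (median 9.28) with saline-sired and 2.83 to 14.9 TPM (median 7.74) with morphine-sired rats. The groups overlapped over most of their range in all 3, and the differences were 0.17 (-0.65 to 1.00), 0.027 (-0.62 to 0.67) and -0.33 (-0.96 to 0.31). Of the 9 genes, 4 were higher and 5 lower on average in the morphine-sired group.

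The Kv7 genes encode the M current, a brake on repeated firing that neurotransmitters close. Kcnq3, a pore subunit of that current, lay at 16.03 to 27.3 TPM (median 18.8) across saline-sired libraries against 14.99 to 22.4 TPM (median 18.6) across morphine-sired ones, and its difference was -0.13 (-0.41 to 0.15). Kcnq5 was even in total, at 7.202 to 8.53 TPM (median 7.39) in offspring of saline-treated sires and 6.43 to 9.44 TPM (median 7.24) in those of morphine-treated sires, but not in its transcripts. An assembled transcript of 7437 bases held 94.1 to 98.95% of its level across saline-sired libraries against 27.5 to 96.6% across morphine-sired ones. In morphine-sired 4, 5 and 6 an annotated transcript of 6462 bases stood at 4.01, 4.82 and 3.58 TPM, while the other 9 libraries lay at 0.0591 to 0.823 TPM. The exact permutation p of the share was 0.015 (two-sided, 6 against 6), or 0.50 adjusted over the 33 shares tested.

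Of the EAG, ERG and ELK genes, Kcnh2, the ERG channel, was far above the rest at 69.4 to 98.01 TPM (median 90.2) with saline-sired and 65.5 to 95.7 TPM (median 80.3) with morphine-sired rats, with a difference of -0.12 (-0.33 to 0.10). Kcnh1, the EAG channel, lay at 6.35 to 11.8 TPM (median 10.02) across saline-sired libraries against 7.81 to 11.8 TPM (median 9.82) across morphine-sired ones. Kcnh7, another ERG gene, lay at 4.05 to 8.79 TPM (median 5.99) in offspring of saline-treated sires and 4.11 to 7.57 TPM (median 5.81) in those of morphine-treated sires. The other 5 had means of 0.632 to 4.67 TPM, and 7 of the 8 genes were lower and 1 was higher on average in the morphine-sired group, none at an unadjusted p under 0.05. Kcnh3 was the most uneven of them, at 11.1 TPM in saline-sired 2 and 1.88 to 4.99 TPM in the other 11 libraries. Its difference was -0.37 (-0.97 to 0.23), or -0.13 ± 0.20 (SE) without saline-sired 2. That library was the highest in Pcp2, Gabra6 and Neurod1 and in the sum of serotonergic markers. The part of these markers in the level of Kcnh3 was not tested. The annotated Kcnh3 transcript of 3715 bases was listed at 0 in morphine-sired 5 and 6, where an assembled transcript held the whole level.

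Kcnma1, the pore subunit of the calcium-activated BK channels, had the smallest p of all members. With group means of 0.0813 TPM (saline-sired) and 2.37 TPM (morphine-sired), it reached the limit of 0.5 TPM only through the group where it was high, as no other member did, so it had to differ and its p supports nothing. Its annotated transcripts gave 0.192, 0, 0.00884, 0.00453, 0.274 and 0.00933 TPM in saline-sired 1 to 6 and 2.04, 4.302, 1.997, 0.0376, 0.786 and 5.03 TPM in morphine-sired 1 to 6. The morphine-sired libraries were higher but for morphine-sired 4, which lay within the saline-sired range. The difference was 1.41 ± 0.37 (SE; adjusted p = 0.9998 in limma). This size depends on the pseudocount, at 1.95 ± 0.49 with 0.5 and 3.30 ± 0.83 with 0.1 in place of 1. In limma-voom it was 5.20 ± 2.94, and Kcnma1 was not among the members at an unadjusted p under 0.05. The gene (Rnor_6.0, chromosome 15, 344360 to 1047956, plus strand) shares its locus with another symbol, so the 14 assembled transcripts there, of 9219 to 12693 bases, were not given to it, and its own transcripts held 7.401% of the locus. The locus total, computed after the data were seen, was 13.99 to 20.9 TPM (median 17.95) across saline-sired libraries against 11.8 to 19.2 TPM (median 15.2) across morphine-sired ones, a difference of -0.19 ± 0.13 (SE; adjusted p = 0.9999 in limma), of the opposite sign.

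**Figure D2:**
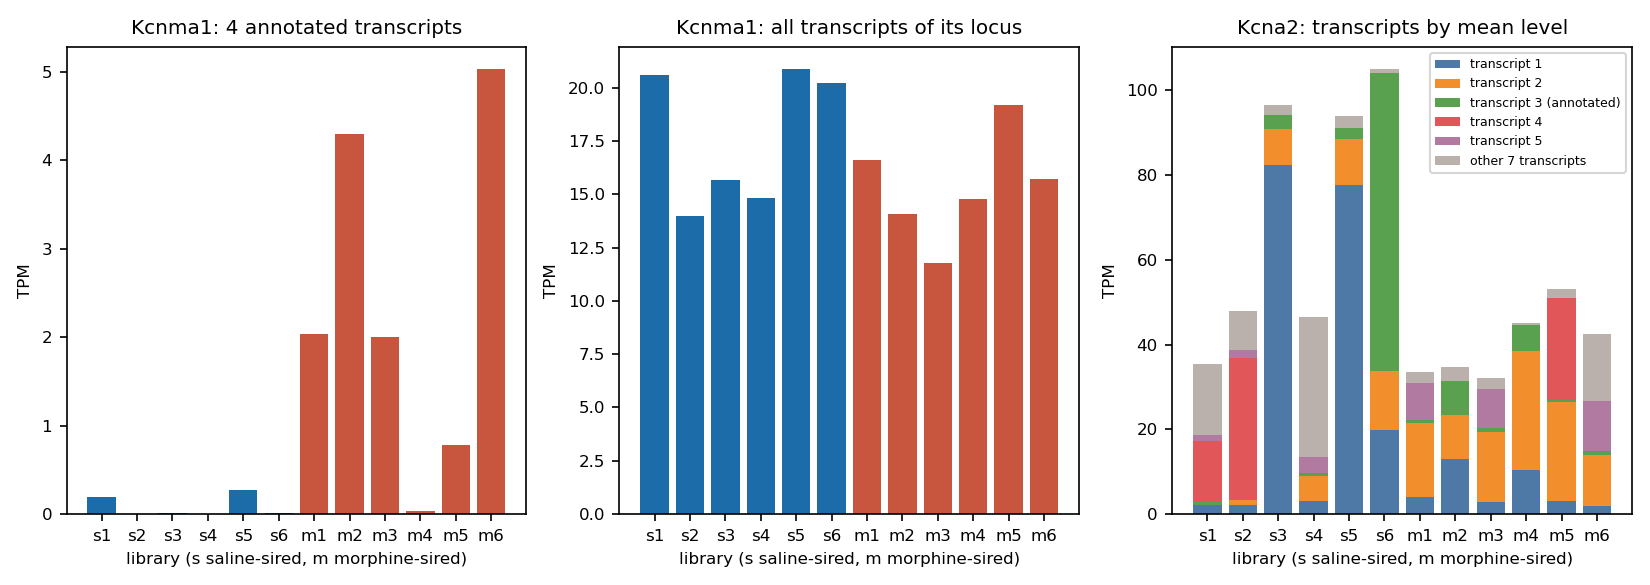
TPM per library (s saline-sired, blue; m morphine-sired, red) of the 4 annotated Kcnma1 transcripts and of all transcripts of its locus, and of Kcna2 split by transcript in order of mean level. The Kcnma1 transcripts reach 5.03 TPM in morphine-sired 6 and at most 0.274 TPM in the saline-sired libraries, while the locus total stays between 11.8 and 20.9 TPM, and different transcripts carry the 3 high Kcna2 libraries.

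Kcnmb4, the neuronal beta subunit of BK channels, was the highest BK gene, at 13.8 to 46.1 TPM (median 18.5) with saline-sired and 13.2 to 39.8 TPM (median 15.4) with morphine-sired rats. Saline-sired 6 and morphine-sired 1 were high, at 46.1 and 39.8 TPM, and the other 10 libraries lay at 13.2 to 23.5 TPM. Kcnf1 had its highest values in the same libraries, 32.7 and 30.9 TPM. These are also among the 3 libraries with few cholinergic and motor markers, the other being saline-sired 1, where Kcnmb4 was 19.4 and Kcnf1 23.04 TPM. A list of 4 thalamic and collicular markers was highest in saline-sired 6 (207 TPM), with 154 TPM in saline-sired 1 and 153 TPM in morphine-sired 1. It was also 151 TPM in morphine-sired 4, where cholinergic and motor markers summed to 74.8 TPM and Kcnmb4 and Kcnf1 were 23.5 and 23.8 TPM, in a range over the 12 libraries of 14.5 to 207 TPM. The part of neighbouring tissue in these levels was not tested. Of these libraries 1 is saline-sired and 1 morphine-sired, and the group differences were -0.14 (-0.80 to 0.53) for Kcnmb4 and 0.027 (-0.62 to 0.67) for Kcnf1. Kcnmb2 lay at 3.01 to 5.95 TPM (median 4.599) across saline-sired libraries against 2.07 to 5.31 TPM (median 3.95) across morphine-sired ones. Kcnmb1, at a mean of 0.804 TPM, lies within the span of Kcnip1 on the opposite strand. Where their exons overlap, reads may not be told apart without strand, and exon overlap was not examined.

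Of the SK genes, which carry the afterhyperpolarization that follows a spike, Kcnn1, Kcnn2 and Kcnn3 were close together in level. Kcnn2 was found at 10.6 to 12.99 TPM (median 11.4) in offspring of saline-treated sires and 10.5 to 12.5 TPM (median 11.2) in those of morphine-treated sires. Kcnn3 lay at 8.07 to 14.5 TPM (median 10.7) with saline-sired and 8.89 to 14.4 TPM (median 11.1) with morphine-sired rats. Kcnn1 lay at 7.35 to 11.7 TPM (median 10.6) across saline-sired libraries against 9.802 to 12.9 TPM (median 10.3) across morphine-sired ones, with saline-sired 1 the lowest of the 12. Kcnn2 had a coefficient of variation of 6.74%, the second lowest of the members with a mean of at least 5 TPM, and a difference of -0.0089 (-0.15 to 0.13). Kcnn4, the intermediate conductance channel of blood and glial cells, lay just inside the limit of the rule at 0.530 TPM, with a coefficient of variation of 42.8%. Of the sodium-activated channels, Kcnt1 (Slack) lay at 21.1 to 31.6 TPM (median 27.01) in offspring of saline-treated sires and 20.6 to 31.6 TPM (median 27.7) in those of morphine-treated sires. Kcnt2 (Slick) was lower, at 1.89 to 5.34 TPM (median 2.56) with saline-sired and 2.69 to 6.04 TPM (median 3.45) with morphine-sired rats. Their differences were 0.03 (-0.23 to 0.29) and 0.18 (-0.30 to 0.67).

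Among the inward rectifiers outside GIRK, Kcnj16, a glial subunit that pairs with Kcnj10, was the highest at 51.4 to 93.7 TPM (median 69.6) across saline-sired libraries against 49.1 to 91.8 TPM (median 72.8) across morphine-sired ones. Kcnj11, the pore of ATP-sensitive channels that couple metabolism to excitability, was the most even member of all with a coefficient of variation of 6.13%. It lay at 30.2 to 34.6 TPM (median 31.2) in offspring of saline-treated sires and 27.5 to 32.5 TPM (median 31.2) in those of morphine-treated sires, and its interval, -0.062 (-0.18 to 0.059), was the narrowest reported here. Kcnj12, a strong rectifier of the Kir2 kind, lay at 15.8 to 29.7 TPM (median 21.1) with saline-sired and 15.3 to 32.7 TPM (median 22.1) with morphine-sired rats. Kcnj14, at 0.710 to 9.301 TPM (median 3.64) across saline-sired libraries against 1.96 to 8.54 TPM (median 3.53) across morphine-sired ones, was uneven in both groups and shares its locus with Grwd1. Kcnj13, an epithelial channel of the choroid plexus and retina, had the highest coefficient of variation, 188%. It was 6.35 TPM in morphine-sired 2, 1.82 TPM in saline-sired 2, 1.302 TPM in morphine-sired 5 and at most 0.748 TPM in the other 9 libraries. Morphine-sired 2 and saline-sired 2 are the libraries with the highest sums of choroid plexus markers, mostly Ttr. Of the 7 markers, Ttr, Kl, Aqp1 and Slc4a5 were highest in morphine-sired 2. Folr1, Clic6 and Prlr were highest in morphine-sired 3 (28.3, 14.5 and 3.88 TPM), where Kcnj13 was listed at 0. The part of these markers in the level of Kcnj13 was not tested. Kcnj2 and Kcnj4, of the Kir2 kind too, had means of 6.51 and 2.82 TPM, and 3 of the 7 rectifiers were higher and 4 lower on average in the morphine-sired group.

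**Figure D3:**
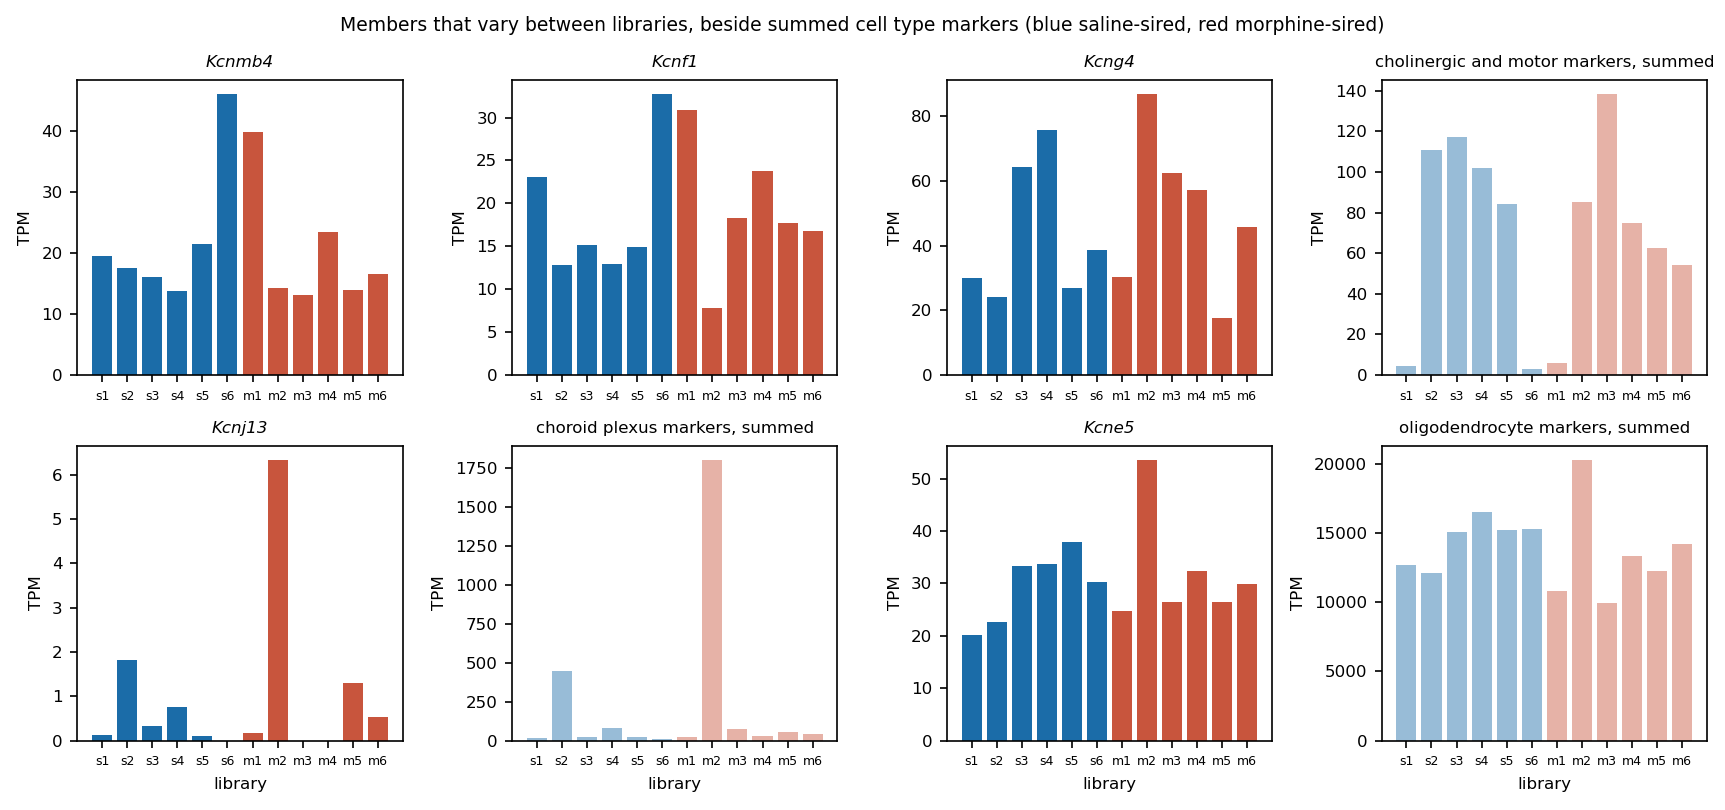
TPM per library (s saline-sired, blue; m morphine-sired, red) of 5 members and, in pale bars, of 3 summed marker lists. Kcnmb4 and Kcnf1 were highest in saline-sired 6 and morphine-sired 1, where cholinergic and motor markers were low. Kcnj13 and Kcne5 were highest in morphine-sired 2, where the sums of choroid plexus and oligodendrocyte markers were highest, though not each marker of these lists. The sum of neuron markers, not plotted, was also highest there.

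The K2P leak channels, which hold the resting potential, had 12 members with 186 to 273 TPM summed per library. Kcnk9 (TASK-3) was the highest, at 43.8 to 108 TPM (median 67.9) in offspring of saline-treated sires and 42.9 to 85.4 TPM (median 72.3) in those of morphine-treated sires. Kcnk1 (TWIK-1) followed at 51.3 to 62.2 TPM (median 57.6) with saline-sired and 43.1 to 57.8 TPM (median 53.3) with morphine-sired rats. Kcnk3 (TASK-1), an acid-sensitive channel like Kcnk9, was next at 19.7 to 29.2 TPM (median 24.8) across saline-sired libraries against 18.4 to 29.1 TPM (median 26.7) across morphine-sired ones. Kcnk1 had the narrower interval, -0.14 (-0.30 to 0.022), against -0.058 (-0.51 to 0.40) for Kcnk9. Kcnk9 was highest in saline-sired 2, at 108 TPM. That library was highest in Pcp2, Gabra6 and Neurod1 and in the sum of serotonergic markers (1016 TPM). Next for Kcnk9 were morphine-sired 6 (85.4 TPM), morphine-sired 2 (82.9 TPM) and saline-sired 3 (79.7 TPM). Serotonergic markers summed to 17.6, 457 and 447 TPM in these. The difference of Kcnk9 without saline-sired 2 was 0.07 ± 0.19 (SE), of the opposite sign. The part of the cerebellar and serotonergic markers was not tested. The stretch- and lipid-gated genes Kcnk2, Kcnk4 and Kcnk10 (TREK-1, TRAAK and TREK-2) had means of 18.2, 15.1 and 3.91 TPM. Kcnk12, a silent subunit, stood at 19.7 TPM, and Kcnk13, Kcnk15, Kcnk6 and Kcnk5 at 2.98, 2.75, 0.684 and 0.580 TPM. Kcnk16 was 8.104 TPM in morphine-sired 3 and 0.423 TPM in morphine-sired 2, the highest and the lowest value of the 12, around a saline-sired range of 1.695 to 3.63 TPM. On average 6 of the K2P genes were higher and 6 lower in the morphine-sired group, none at an unadjusted p under 0.05.

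The highest level of all members was that of an auxiliary subunit. Kcnab2, a Kv beta subunit that binds Kv1 channels, lay at 294 to 408 TPM (median 359.9) in offspring of saline-treated sires and 309.8 to 411 TPM (median 328) in those of morphine-treated sires, and its difference was -0.047 (-0.23 to 0.14). Kcnab3 followed at 26.9 to 51.6 TPM (median 44.1) with saline-sired and 30.5 to 50.4 TPM (median 37.4) with morphine-sired rats. Kcnab1, which speeds the inactivation of Kv1 channels, lay at 33.1 to 44.4 TPM (median 40.03) across saline-sired libraries against 32.4 to 46.1 TPM (median 36.5) across morphine-sired ones. All 3 Kv beta genes were lower on average in the morphine-sired group, none at an unadjusted p under 0.05. The KChIP genes, calcium-binding partners of Kv4 channels, were led by Kcnip4 at 38.2 to 64.8 TPM (median 50.2) in offspring of saline-treated sires and 38.6 to 63.8 TPM (median 50.1) in those of morphine-treated sires. Kcnip1 lay at 30.4 to 44.01 TPM (median 35.8) with saline-sired and 32.4 to 48.5 TPM (median 37.98) with morphine-sired rats. Kcnip3, also known as a calcium-dependent repressor of transcription, lay at 18.6 to 45.98 TPM (median 32.8) across saline-sired libraries against 25.2 to 41.3 TPM (median 34.4) across morphine-sired ones. Kcnip2 had a mean of 12.7 TPM. The differences of Kcnip4, Kcnip1 and Kcnip3 were -0.071 (-0.37 to 0.23), 0.076 (-0.17 to 0.32) and 0.12 (-0.28 to 0.53). Of the KCNE genes, Kcne5 was 53.6 TPM in morphine-sired 2 and 20.2 to 37.9 TPM elsewhere, and Kcne4 lay at 1.85 to 3.08 TPM (median 2.17) in offspring of saline-treated sires and 1.72 to 3.33 TPM (median 1.92) in those of morphine-treated sires. Morphine-sired 2 also had the highest sums of oligodendrocyte markers, 20328 TPM, and of neuron markers, 8412 TPM, though not of each marker. Kcne5 was next in saline-sired 5, 4 and 3, at 37.9, 33.6 and 33.3 TPM. Neuron markers summed to 7422, 7188.5 and 7141 TPM there, and oligodendrocyte markers to 15211, 16555 and 15089 TPM. The part of these lists in the level of Kcne5 was not tested.

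**Figure D4:**
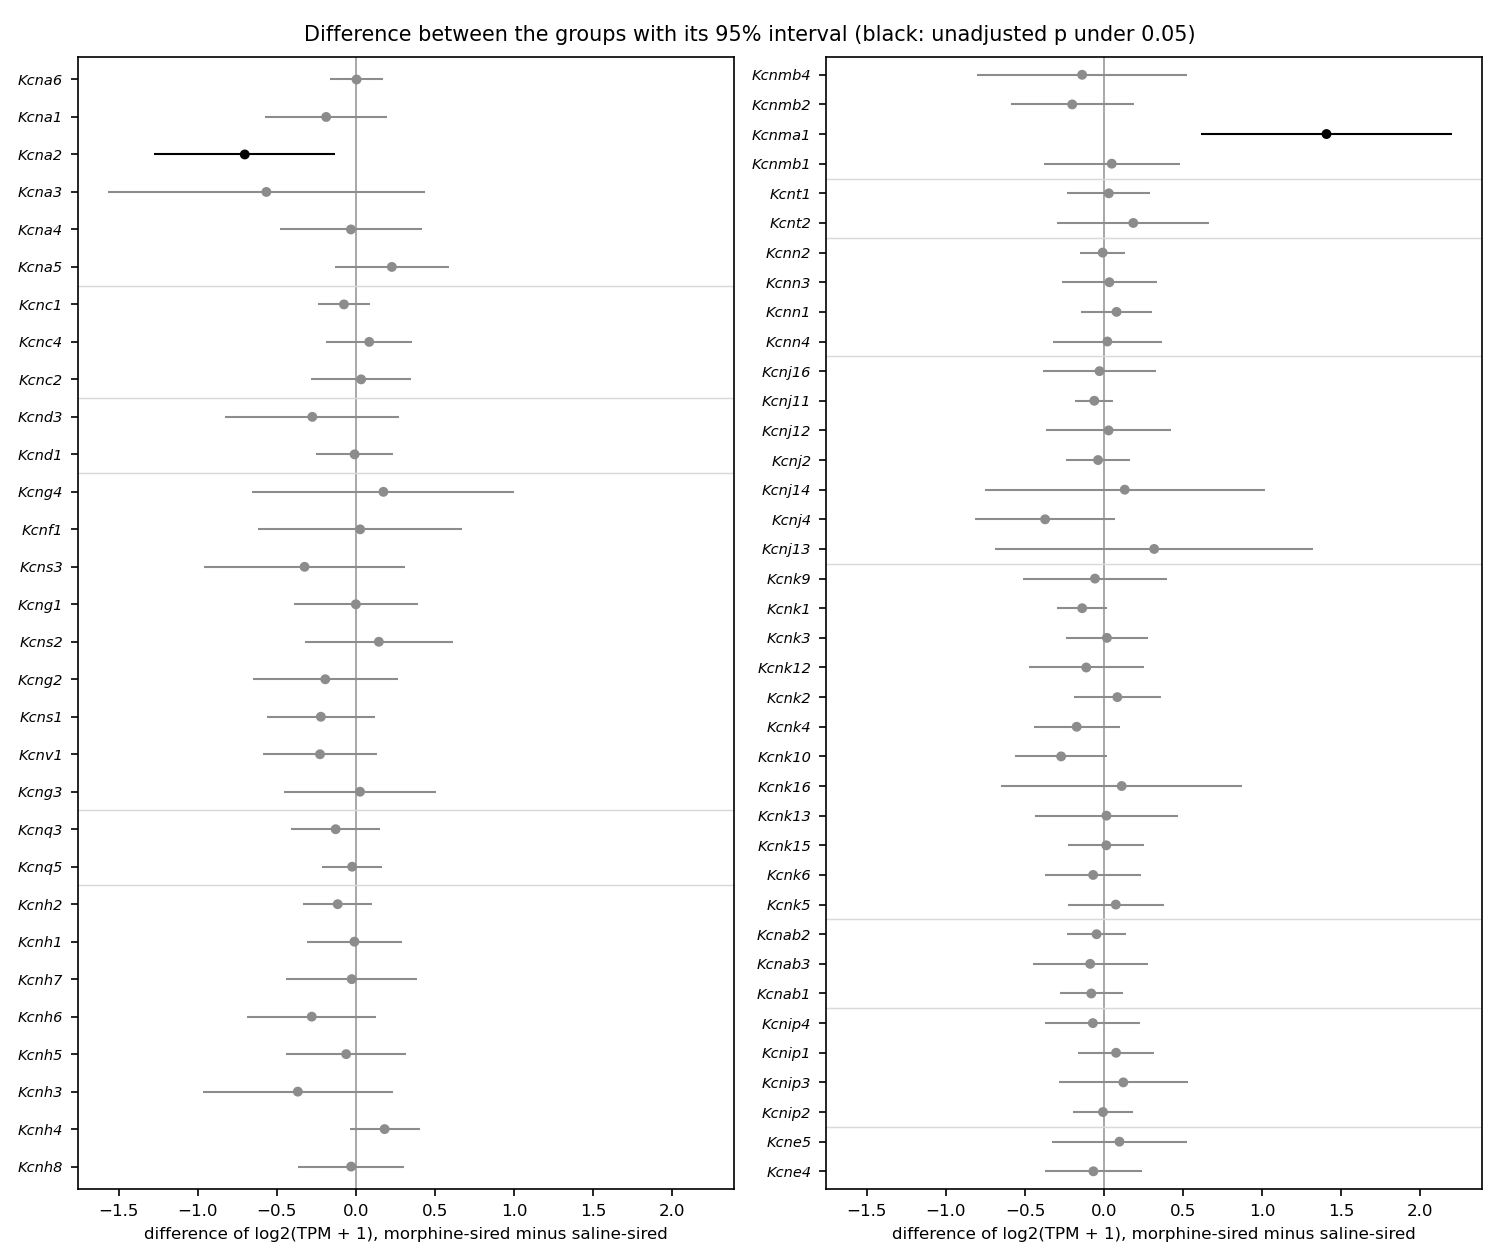
Group difference on the log2(TPM + 1) scale, positive where the morphine-sired mean was higher, with its 95% interval for 68 of the 72 members, in the order of the plot of levels. Black marks the 2 members at an unadjusted p under 0.05, Kcna2 at -0.70 and Kcnma1 at 1.41; the others plotted lie within 0.57 of 0.

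Transcripts of the members were tested apart from the genes. Of 196 member transcripts at a mean of at least 0.5 TPM, 9 stood at an unadjusted p under 0.05, or 4.59%, beside 3.77% of all 50419 transcripts, and none at an adjusted p under 0.05, beside 0.00198% of all. The smallest p-values belonged to transcripts of Kcnq5, Kcna2, Kcnh3 and Kcnh2. The Kcnh2 transcript of 3920 bases lay at 17.7 to 27.2 TPM (median 26.1) across saline-sired libraries against 12.6 to 26.03 TPM (median 15.01) across morphine-sired ones (log2 difference -0.50 ± 0.19), while the gene total differed by -0.12 (-0.33 to 0.10). The leading transcript's share of its gene spanned over 50 percentage points across libraries in 10 of the 33 genes tested, among them Kcnh3 (0 to 100%) and Kcna2 (4.33 to 85.3%). In 23 of 72 members most of the level came from assembled transcripts.

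Partners of these channels were read from a list of 33 genes of auxiliary proteins, clustering proteins and related channels. Of these, 32 were found and 30 tested, 12 higher and 18 lower in the morphine-sired group, none at an unadjusted p under 0.05 (smallest limma p 0.091, for Ank2). Their median difference was -0.018. Among the highest were Calm3 and Calm2, calmodulin genes whose product is the calcium sensor of SK channels, at means of 1525 and 508 TPM, and Hcn2, a pacemaker channel, at 346 TPM. Dpp6, a subunit of Kv4 channels, was found at 103 to 149 TPM (median 129.8) with saline-sired and 98.9 to 136 TPM (median 119) with morphine-sired rats. This was far above the Kv4 members Kcnd3 and Kcnd1, while the level of Kcnd2 is not known here.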

How the data were processed

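RNA libraries of 12 rats were sequenced. The submitters' processing notes name SAMtools 1.11, HISAT2 2.2.0, DESeq2 1.28.1, Trimmomatic 0.39, FastQC 0.11.9, StringTie 2.1.2 and the build Rnor_6.0, with no role for each. Per the file headers, the deposited transcript files come from StringTie 1.3.6, and each gives coverage, FPKM and TPM of 76232 transcripts, 35169 of them assembled from the series and 41063 annotated. The authors also deposited a table of log2 values. The 2 columns read from it equalled log2(FPKM + 1) of annotated transcripts to within 4.9e-08, and 10 columns were not read. No source states strandedness.

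Gene levels were sums of TPM by symbol, and assembled transcripts counted where their locus has 1 symbol (770 loci have several). All genes averaging 0.5 TPM or more entered a limma fit (version 3.58.1, R 4.3.3; two-sided, eBayes with an intensity trend; p-values adjusted by Benjamini-Hochberg) of log2(TPM + 1), a scale that understates changes of low genes. Depth was taken from coverage over FPKM, and reads for limma-voom from it with an inferred read length of 135 bases. Transcript shares were compared by exact permutation over 924 assignments. The fit was also run on simulated normal values without libraries that stand apart, and the outcome is not given here. Alternatives changed the pseudocount, filter, transcripts, scaling, model and libraries. Replicates were numbered in accession order. The members, gene lists and tests were chosen with earlier results of these data known. Values were printed for up to 3 of the highest genes of each subfamily, genes at an unadjusted p under 0.05, the 6 most variable and 4 most even, those at the limit, and 7 set genes; others were named after their values were seen. Some members and 1 partner gene are not reported here. Promoter sequences are from RefSeq (GRCr8). Other steps used Python 3.11.15 (pandas 2.3.3, numpy 2.4.6, matplotlib 3.10.9, scipy 1.17.1).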

Additional observations from a re-analysis of the deposited data

Results flagged for a closer look

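In 16 of 144 pairs of a member and a group, 11.1%, 1 library lay far from the other 5 of its group by Dixon's criterion on log2(TPM + 1); chance gives about 5%, 1 in 20. Over all 24540 tested genes 8.82% of such pairs were flagged, 23.4% of them in morphine-sired 2. Of the 16, 12 are described here, 5 of them in morphine-sired 2. It was high for Kcnk12 at 27.2 TPM (others 15.7 to 18.9), Kcne5 at 53.6 TPM (others 24.7 to 32.5) and Kcnab1 at 46.1 TPM (others 32.4 to 36.6), and low for Kcnc4 at 75.9 TPM (others 120.4 to 142) and Kcns1 at 0.830 TPM (others 1.55 to 1.99). Saline-sired 6 was high for Kcnmb4 at 46.1 TPM (others 13.8 to 21.5) and Kcnh8 at 1.05 TPM (others 0.452 to 0.636). Saline-sired 1 was high for Kcnd3 at 30.8 TPM (others 8.03 to 10.6) and low for Kcnn1 at 7.35 TPM (others 10.1 to 11.7). The remaining flags were Kcnt2 at 6.04 TPM (others 2.69 to 3.601) in morphine-sired 1, Kcnc1 at 115 TPM (others 141 to 152) in morphine-sired 3 and Kcna3 at 0.916 TPM (others 9.48 to 18.5) in morphine-sired 4. The Kcna3 locus total in morphine-sired 4, with its assembled transcripts, was 13.2 TPM in a range of 13.2 to 30.7 TPM over the 12 libraries.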

How the results depend on the processing

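No member passed an adjusted p of 0.05 in limma under any of the 13 other settings or the 12 that leave out a library; the count of all genes that did was 0 to 1 when each library was left out, and 1 without the 3 libraries low in raphe and motor markers (AABR07044389.1, named after its values were seen), never a member. The number of members at an unadjusted p under 0.05, 2 of 72 (all genes 3.22%), was 1 of 56 at a mean of at least 3 TPM (all genes 2.81%), 1 with locus totals (an alternative chosen after seeing the data; 3.09%), 8 without the 2 choroid plexus-rich libraries (8.86%), 5 without the 3 libraries low in raphe and motor markers (3.06%) and 5 with serotonergic and cholinergic scores as terms (3.56%). It was 2 to 8 when each library was left out, with 8 without morphine-sired 2 (all genes 6.002%), 5 without saline-sired 1 (3.199%) and 4 without saline-sired 6 (3.18%) or morphine-sired 1 (3.12%); the cause was not tested. In limma-voom on estimated reads it was 3, Kcna2 and Kcnh4 but not Kcnma1 among them (Kcnh4 named after its values were seen). Over annotated transcripts alone it was 3 of 69 (all genes 3.53%), Kcnma1, Kcnh3 and Kcnq5, but not Kcna2. Of the members described, the sign of a difference past 1 standard error turned for Kcnma1 (-0.19) with locus totals, where by construction other transcripts are counted. No paired analysis was possible because the labels give animal numbers of which none is shared between the groups. Low members are limited by depth, and members with many overlapping transcripts by the division of reads among them.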

Other observations

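Some members that lie next to each other differed widely in level, and others did not. On chromosome 4 of Rnor_6.0, Kcna5, Kcna1 and Kcna6 stand on the minus strand at 3.94, 91.7 and 98.4 TPM, with gaps of 112 and 61.4 kb, so that Kcna1 was 23.3-fold above Kcna5 in mean level and close to Kcna6. On chromosome 10, Kcnj16 was 11.1-fold above Kcnj2, which lies 45.6 kb away on the same strand. Kcna3 on chromosome 2 stood at 13.2 TPM, against 55.6 TPM for Kcna2. It lies within the Kcna2 span only through the assembled transcript of 4333 bases that starts at 209741272. All other Kcna2 transcripts start at 209838869 or later, past the end of Kcna3 at 209769711. Annotated transcripts held 11.2% of the Kcnj16 level and 17.7% of the Kcna2 level, but 100% for Kcnj2 and Kcna3. The assembled transcripts of the Kcna3 locus were not given to Kcna3, and with them the locus total had a mean of 23.03 TPM. The contrasts of these 2 pairs therefore depend on which transcripts are counted. These ratios are descriptions over 12 libraries, and TPM of genes with overlapping transcripts is uncertain.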
